A study of Mus musculus with 10 samples.

Results

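Inspiratory neurons of the preBötzinger complex (preBötC), the brainstem site that drives the active phase of breathing, were examined for 9 peptide receptor genes and for Reln, a gene used as a marker of preBötC neurons. The 10 genes were taken by name out of 55367 listed genes: the neurokinin receptors Tacr1 and Tacr3, the somatostatin receptors Sstr1, Sstr2 and Sstr3, the bombesin-like peptide receptors Nmbr and Grpr, the TRH receptor Trhr, the orexin receptor Hcrtr1, and Reln. All 10 genes were listed in the count and FPKM tables.

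Each of the 10 samples was the cytoplasm of 1 neuron, drawn into the patch pipette from a slice of neonatal mouse brainstem and sequenced as 1 library. The recordings had sorted the neurons into 4 Type-1 neurons (samples 4, 5, 6 and 7), which are held to set the rhythm, 1 Type-2 neuron (sample 1), held to shape the output, and 5 Unknown neurons (samples 2, 3, 8, 9 and 10), whose recordings were ambiguous. By the labels, samples 1, 5, 6 and 7 were Dbx1-derived: they came from Dbx1; Ai148 pups, in which Cre under the Dbx1 promoter switches on the calcium indicator GCaMP6f, on a C57Bl/6J or mixed C57Bl/6J; CD1 background. Samples 2, 3, 4, 8, 9 and 10 were from CD-1 wild-type (WT) pups and carried no lineage reporter. Samples 1, 3, 5 and 8 were taken at P0, sample 10 at P1, samples 2 and 9 at P2 and samples 4, 6 and 7 at P3. No animal is named, so neurons of 1 type may share a pup, and a type counts as 1 sample here. No test between types, lines or ages was therefore made and no p-value is given. Figure legends of the study assign the mouse lines in another way. Its text, like the labels, counts 3 Type-1 neurons and the Type-2 neuron as Dbx1-derived. It places 1 Type-1 and all 5 Unknown neurons in CD-1 mice, and line here follows the labels throughout. Legends and labels both give sample 7 as Dbx1-derived and samples 2, 3 and 4 as WT. Type and line also overlap, since all 5 Unknown neurons are WT and 3 of the 4 Type-1 neurons are Dbx1-derived, so they cannot be told apart.

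These receptors are proteins of the cell surface that couple to G proteins. Substance P, acting at the neurokinin receptor encoded by Tacr1, speeds the inspiratory rhythm, and TRH and orexin are excitatory in the same region. Somatostatin, itself made by many preBötC neurons, acts through inhibitory receptors, and the bombesin-like peptides are known for evoking sighs. Reelin, the product of Reln, is a secreted protein that guides neuronal positioning and is bound by the receptors encoded by Vldlr and Lrp8, which signal through Dab1.

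The libraries held between 21392146 and 36629393 fragments counted on genes, and between 9.13% and 16.8% of all listed genes were at 1 FPKM or more per neuron. FPKM is the fragment count per kilobase of gene and per 1000000 counted fragments, so levels can be compared between genes. Samples 1 to 4 held between 9.13% and 12.3% of listed genes, sample 9 held 12.0%, and the other 5 neurons held between 15.7% and 16.8%. The study sets samples 1 to 4 apart for the least cDNA, although all passed its limit. It also reports lower and more variable expression there, for a portion of the detected genes. Sample 4 stood apart from the other 9 neurons on its markers. Snap25 and Tubb3, genes every neuron uses, were at 3.63 and 1.07 FPKM there, while the 8 microglia markers summed to 15398 FPKM and all 8 were at 1 FPKM or more. Of the 8 neuronal markers 6 were at 1 FPKM or more there, as in sample 1, against 7 or 8 in the rest. In the other 9 neurons the 8 neuronal markers summed to between 761 and 4670 FPKM against 58.4 FPKM in sample 4. The microglia list summed to between 0.685 and 2039 FPKM in those 9 neurons, with all 8 markers at 1 FPKM or more in sample 2. The 8 astrocyte markers summed to between 151 and 6392 FPKM, highest in sample 3 and with all 8 at 1 FPKM or more in sample 8. The oligodendrocyte lineage list reached 337 FPKM in sample 3. Of 6 endothelial markers Tek alone was at 1 FPKM or more, at 6.82 FPKM in sample 1, and 4 had no fragment in any library. Sample 9 was the 1 neuron with Slc18a3 (444 FPKM), Isl1 (38.1 FPKM) and Chat (1.8 FPKM) at 1 FPKM or more, genes of cholinergic motoneurons that were chosen after their values were seen. Its label says Unknown preBötC inspiratory neuron. Several counts and means that rest on sample 9 are given below also without it, and the Type-1 count also without sample 4.

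Upstream sequence is shown for Reln, Tacr3 and Sstr2, which were held by many, few and 1 of the neurons, as given below. They are the members with a single RefSeq start that lies within 20 bases of the GENCODE start. Each run is the 250 bases before the RefSeq start on GRCm38.p6, written 5′ to 3′ on the gene's strand, with every CG dinucleotide in capitals. The Reln run is chr5:22344706-22344955 on the minus strand, the Tacr3 run is chr3:134828757-134829006 on the plus strand and the Sstr2 run is chr11:113619077-113619326 on the plus strand.
Reln: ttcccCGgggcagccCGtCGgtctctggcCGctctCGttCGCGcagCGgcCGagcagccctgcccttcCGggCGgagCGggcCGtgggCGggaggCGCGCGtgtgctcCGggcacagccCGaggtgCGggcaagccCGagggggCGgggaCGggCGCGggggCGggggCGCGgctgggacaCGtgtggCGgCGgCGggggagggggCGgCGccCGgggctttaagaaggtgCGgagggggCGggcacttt
Tacr3: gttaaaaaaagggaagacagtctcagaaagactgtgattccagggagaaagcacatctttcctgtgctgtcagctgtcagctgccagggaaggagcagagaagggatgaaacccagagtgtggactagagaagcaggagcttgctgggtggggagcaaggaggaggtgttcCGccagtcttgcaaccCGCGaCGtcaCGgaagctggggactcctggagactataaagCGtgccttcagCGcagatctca
Sstr2: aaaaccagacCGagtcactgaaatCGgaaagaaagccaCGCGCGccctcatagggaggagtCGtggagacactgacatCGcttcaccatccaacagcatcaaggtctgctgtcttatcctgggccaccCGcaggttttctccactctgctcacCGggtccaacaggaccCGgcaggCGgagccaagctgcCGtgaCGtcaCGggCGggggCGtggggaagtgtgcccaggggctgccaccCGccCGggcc

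The Reln run held 37 CG dinucleotides, a number that 2.23% of 32536 RefSeq windows of the same length reach. Sstr2 held 18, reached by 21.8% of windows, and Tacr3 held 7, reached by 46.6%, with a median of 6 over all windows. The letters TATAAA were searched on both strands and occur in 12.3% of windows. Of the 3 runs Tacr3 held them, starting 29 bases before its start. The letters TGACGTCA, a cAMP response element that reads alike on both strands and contains 1 of the CG dinucleotides, were searched after the sequences had been seen. They occur in 1.56% of windows and in the Sstr2 run, starting 58 bases before its start. These are matches of letters and nothing was measured on the promoters themselves. Windows of 8 of the 10 members were in the table, and Sstr1 and Trhr were not matched.

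The members were either above 1 FPKM in a neuron, in some cases by little, or at 0.164 FPKM or less. Of the 100 combinations of a member and a neuron, 19 were at 1 FPKM or more, here called held, and 81 were below. Single neurons held between 9.13% and 16.8% of all listed genes. The lowest held values were 1.1 FPKM (Reln in sample 5), 1.61 FPKM (Nmbr in sample 2) and 2.22 FPKM (Hcrtr1 in sample 1). The highest value that was not held was 0.164 FPKM (Reln in sample 10), so that no member lay between 0.164 and 1.1 FPKM in any neuron. That value came from 119 fragments, so a neuron called without a gene is one that did not hold it. In 51 combinations there was no fragment at all. Of the members 8 were held by at least 1 neuron, against 29.9% of all listed genes, and 3 were held by exactly 1 neuron, against 7.46% of all genes. The median member was held by 1.5 neurons and had a mean of 3.93 FPKM over the 10 neurons, where the median of all listed genes is held by 0 neurons at 0 FPKM.

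**Figure D1:**
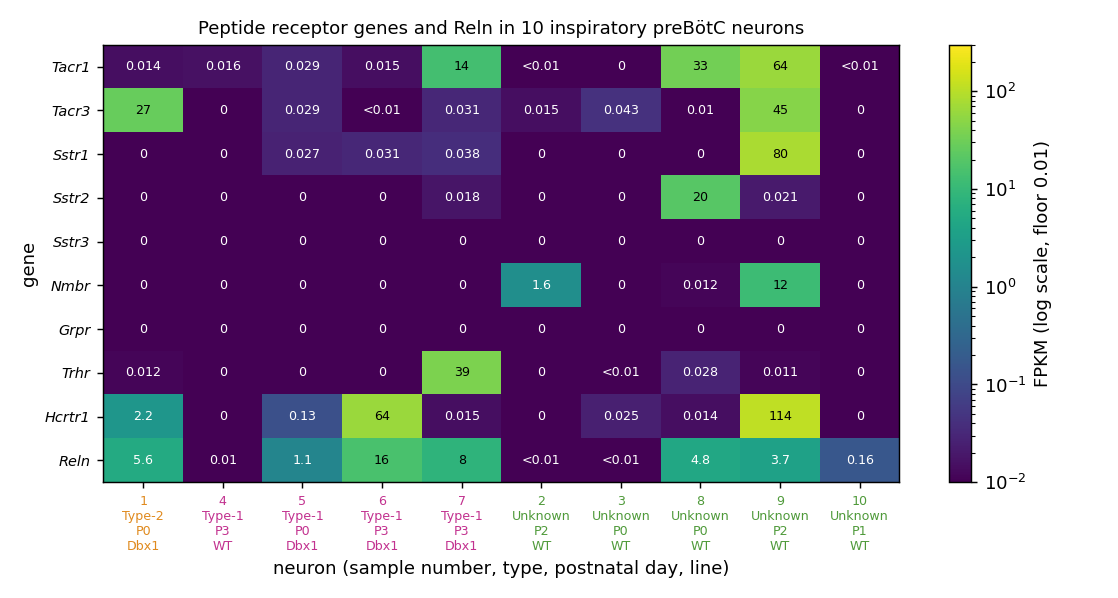
FPKM of the 10 members (rows) in the 10 neurons (columns, ordered by Type-2, Type-1 and Unknown, with postnatal day and line), on a log colour scale with the value written in each cell. The 19 cells at 1 FPKM or more stand out, 6 of them in sample 9, and the rows of Sstr3 and Grpr are at 0 throughout.

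Reln (ENSMUSG00000042453.14, chromosome 5, 21884454 to 22344702 in GRCm38, 67 exon blocks) was the most widely held member, in 6 of 10 neurons. The Type-2 neuron, sample 1, had 5.56 FPKM. Of the Type-1 neurons, sample 6 was highest with 15.8 FPKM, followed by sample 7 with 8.05, sample 5 with 1.1 and sample 4 with 0.01. Of the Unknown neurons, sample 8 had 4.8 FPKM, sample 9 had 3.66, sample 10 had 0.164, sample 3 had 0.00947 and sample 2 had 0.00697. All 4 Dbx1-derived neurons thus held Reln, as did 2 of the 6 WT neurons, and the ranges of the lines overlapped between 1.1 and 4.8 FPKM. With TMM-scaled library sizes sample 5 fell below 1 FPKM. Of the neurons on whose line the legends and the labels do not differ, sample 7 held Reln and samples 2, 3 and 4 did not. Samples 2, 3 and 4 are among the libraries that the study sets apart, and so is sample 1, which held Reln. Of the neurons without Reln, samples 2 and 4 held all 8 microglia markers, sample 10 held 7 and sample 3 held 5. Of those with Reln, samples 5 and 8 held 6 each, sample 6 held 3, sample 1 held 2 and samples 7 and 9 none. The part of either in the absence of Reln was not tested. Genes held by all 4 Dbx1-derived neurons and by at most 2 of the 6 WT neurons make up 0.565% of all listed genes. That pattern is Reln's own, so the share tests nothing and sets no line apart. Only 29.9% of the listed genes were held by any neuron. The WT neurons carried no reporter, so whether some were Dbx1-derived is not known. Of the 4 neurons that did not hold Reln, sample 4 is the one with few neuronal transcripts, and sample 10 had 119 fragments of it. The largest counts were the 11831 fragments of sample 6, with a 95% interval of 11619 to 12046, and the 4906 of sample 7, with 4770 to 5045. These and all later intervals are exact Poisson intervals and cover counting error alone, while for a count of 0 the limit given in the text is 3 fragments. In the order of the levels, the intervals of samples 6, 7, 1, 8, 9 and 5, scaled to FPKM, did not overlap between neighbours. As counts, those of samples 1 (2720 to 2929) and 8 (2918 to 3135) did overlap. An antisense gene, Gm10475, overlaps up to 246 bases of Reln exons and had 304 fragments in sample 6, 96 in sample 7 and at most 1 elsewhere. The library kit does not mark strand, so these few cannot be told apart from Reln.

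Reelin acts on other cells through Vldlr and Lrp8, and the adaptor Dab1 carries the signal inside them. Dab1 was held by 8 neurons, at between 7.11 and 81.4 FPKM, and was at 0.043 FPKM in sample 4 and at 0 FPKM in sample 10. The 6 neurons with Reln all held Dab1 as well, and so did samples 2 and 3. Vldlr was held by samples 1, 5, 8 and 10, with 17.9 FPKM in sample 1 as its highest level. Lrp8 was held by samples 1, 3, 6, 7, 9 and 10, with 10.5 FPKM in sample 10. Each neuron with Reln held at least 1 of the receptors, and sample 1 held both. Of the neurons without Reln, sample 10 also held both, sample 3 held Lrp8 and samples 2 and 4 held neither.

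Tacr1 (ENSMUSG00000030043.11, chromosome 6, 82402334 to 82560104), which encodes the substance P receptor, was held by 3 neurons: the Type-1 sample 7 and the Unknown samples 8 and 9. Sample 9 had the highest level with 64.0 FPKM (9166 fragments), sample 8 followed with 33.0 (5687 fragments) and sample 7 with 14.0 (2339 fragments, 95% interval 2245 to 2436). The remaining 7 neurons had between 0 and 7 fragments, at most 0.0294 FPKM. One of the 3 is Dbx1-derived and the other two are WT, and the 3 ages are P3, P0 and P2. Among the other 3 Type-1 neurons the highest value was that 0.0294 FPKM, in sample 5.

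Tacr3 (ENSMUSG00000028172.5, chromosome 3, 134829007 to 134934579), the receptor favoured by neurokinin B, was held by the Type-2 sample 1 at 27.4 FPKM (2205 fragments, 2114 to 2299) and by sample 9 at 45.4 FPKM (3771 fragments, 3652 to 3893). The other 8 neurons had at most 5 fragments. None of the 4 Type-1 neurons held Tacr3, but with 2 neurons holding it this sets no type apart. Sample 9 held both neurokinin receptors. Tacr2, the third member of the family, had no fragment in any neuron.

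Hcrtr1 (ENSMUSG00000028778.15, chromosome 4, 130130217 to 130139359), one of the pair of orexin receptors, reached the highest level of any member. The Unknown sample 9 had 114 FPKM (6555 fragments, 6397 to 6716), the Type-1 sample 6 had 63.6 (5226 fragments) and the Type-2 sample 1 had 2.22 (124 fragments, 103 to 148). Sample 5 followed at 0.126 FPKM from 12 fragments, and the other 6 neurons had at most 2 fragments. The second orexin receptor gene, Hcrtr2, was held by samples 1, 8 and 9 at 4.17, 15.9 and 6.79 FPKM, and had 0.564 FPKM in sample 10. Samples 1 and 9 therefore held both, sample 6 Hcrtr1 alone and sample 8 Hcrtr2 alone.

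**Figure D2:**
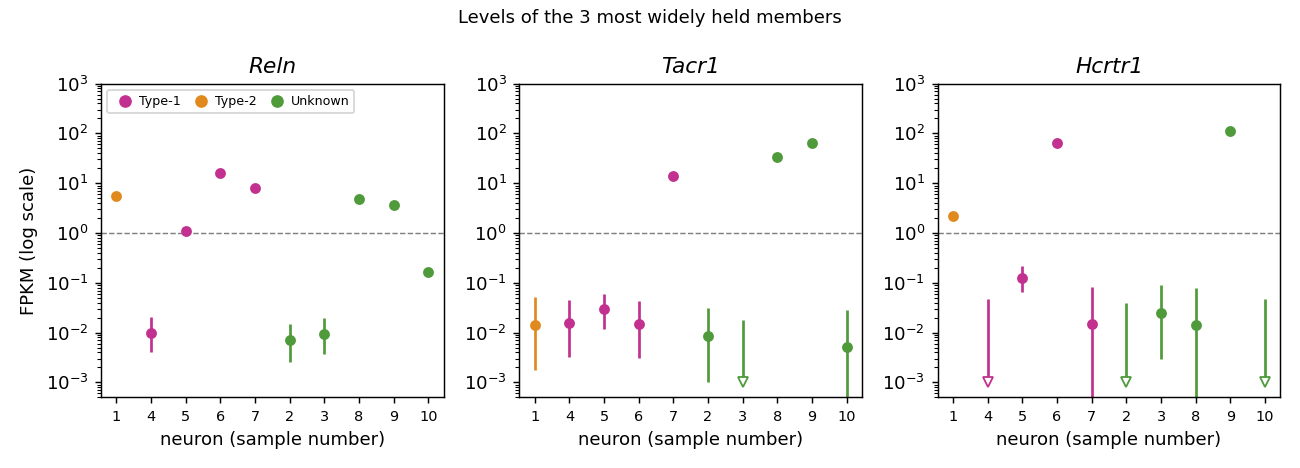
FPKM (log axis) of Reln, Tacr1 and Hcrtr1 in each neuron, coloured by type, with the exact 95% Poisson interval of the count as a bar and open triangles for counts of 0, where the bar ends at the upper bound of that interval. The dashed line is 1 FPKM; the 6 neurons with Reln, the 3 with Tacr1 and the 3 with Hcrtr1 lie above it, and most other neurons lie below 0.05 FPKM.

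The somatostatin receptor genes were each held by 1 neuron at most. Sstr1 (ENSMUSG00000035431.4, chromosome 12, 58211772 to 58214444) was at 80.1 FPKM in the Unknown sample 9, from 3619 fragments, and had at most 2 fragments in each other neuron. Sstr2 (ENSMUSG00000047904.6, chromosome 11, 113619342 to 113626028) was at 20.4 FPKM in the Unknown sample 8, from 1161 fragments, with at most 1 fragment elsewhere. Sstr3 (ENSMUSG00000044933.3, chromosome 15, 78537008 to 78544685) had no fragment in any neuron, which allows up to 3 fragments per library, or between 0.019 and 0.0325 FPKM. Sstr4 and Sstr5, the remaining genes of the family, were likewise at 0 fragments in all 10 neurons. Samples 8 and 9 are both Unknown and WT. A gene held by 1 neuron, as 7.46% of all listed genes were, is not held in any other type, so this sets no type or line apart.

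Of the receptors for bombesin-like peptides, Nmbr (ENSMUSG00000019865.9, chromosome 10, 14705591 to 14770850) had 11.8 FPKM in sample 9 (841 fragments) and 1.61 in sample 2 (189 fragments, 163 to 218). It had 1 fragment in sample 8 and none in the other 7 neurons. Both neurons with Nmbr are Unknown, WT and P2, and are too few to set a type, line or age apart. The antisense gene B230364G03Rik overlaps up to 504 bases of Nmbr exons and had no fragment in any neuron. Grpr (ENSMUSG00000031364.2, chromosome X, 163513904 to 163549677) had no fragment in any of the 10 neurons, which allows up to between 0.0325 and 0.0556 FPKM, and Brs3, the remaining gene of the family, had none either.

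Trhr (ENSMUSG00000038760.14, chromosome 15, 44196135 to 44235912) was held by 1 neuron, the Type-1 sample 7, at 39.4 FPKM from 4047 fragments (3923 to 4174). The other 9 neurons had at most 3 fragments. Its relative Trhr2 was at 22.5 FPKM in another Type-1 neuron, sample 6, from 948 fragments, with at most 1 fragment elsewhere. TRH receptor genes were thus held by the Dbx1-derived Type-1 samples 6 and 7, a different gene in each, and by none of the 5 Unknown neurons. With 1 neuron for each gene, this sets no type or line apart.

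Over the 10 neurons, the mean level was 17.99 ± 39.1 FPKM for Hcrtr1, 11.1 ± 21.5 for Tacr1, 8.02 ± 25.3 for Sstr1, 7.29 ± 15.9 for Tacr3, 3.95 ± 12.5 for Trhr, 3.92 ± 5.06 for Reln, 2.04 ± 6.45 for Sstr2 and 1.34 ± 3.71 for Nmbr (SD, n = 10 neurons in each case). Every SD was larger than its mean, and no neighbours in this order differed by more than their spread. The order turned with the scale: averaged as log2(FPKM + 1) and turned back to FPKM, Reln was first with 2.04, followed by Tacr1 with 1.86, Hcrtr1 with 1.79, Tacr3 with 1.08, Sstr1 with 0.567, Trhr with 0.456, Nmbr with 0.422 and Sstr2 with 0.364. One neuron supplied 40.4% of the summed FPKM of Reln, between 57.6% and 63.3% of that of Tacr1, Tacr3 and Hcrtr1, 87.9% of that of Nmbr and between 99.8% and 99.9% of that of Sstr1, Sstr2 and Trhr. A mean over these neurons therefore describes few of them. Without sample 9 the means were 5.23 FPKM for Tacr1, 3.06 for Tacr3, 0.0106 for Sstr1, 0.181 for Nmbr and 7.34 for Hcrtr1.

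By neuron type, 6 of 40 combinations were held in the Type-1 neurons, against 15.2% of all genes and neurons of that type. In the Type-2 neuron 3 of 10 were held, against 9.15%, and in the Unknown neurons 10 of 50, against 12.9%. Without sample 9 the Unknown neurons held 4 of 40, where each held between 9.13% and 16.8% of all listed genes. Without sample 7 the Type-1 neurons held 3 of 30, where each held between 12.3% and 16.7%. Without sample 4, which held none, the Type-1 neurons held 6 of 30, against 16.1% of all genes and neurons. By line, the Dbx1-derived neurons held 9 of 40, against 14.4%, and the WT neurons 10 of 60, against 12.8%. Without sample 9 the WT neurons held 4 of 50, where each held between 9.13% and 16.8% of all listed genes. By age, the 4 neurons of P0 held 7 of 40, against 12.9%, the 1 of P1 none of 10, against 16.7%, the 2 of P2 held 7 of 20, against 11.1%, and the 3 of P3 held 5 of 30, against 14.6%. Without sample 9 the P2 count was 1 of 10, against 10.2%. No ordering of types, lines or ages can be drawn from counts that move by this much with 1 neuron.

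**Figure D3:**
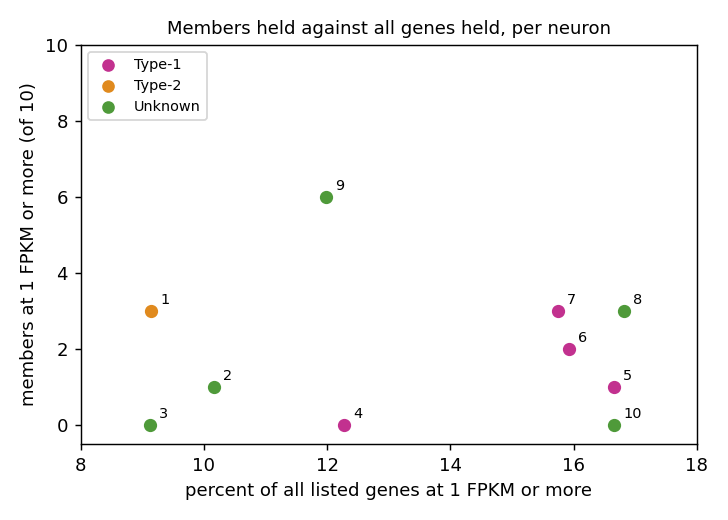
Number of members at 1 FPKM or more (of 10) against the percent of all 55367 listed genes at that level, 1 point per neuron, numbered and coloured by type. Sample 9 holds 6 members at 12.0% of genes, while samples 5 and 10 hold 1 and 0 at 16.7%.

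Single neurons differed in which receptors they combined. Sample 9 held 6 members, Tacr1, Tacr3, Sstr1, Nmbr, Hcrtr1 and Reln, where 12.0% of all listed genes were held in that neuron. The largest number in any other neuron was 3. Sample 1 held Tacr3, Hcrtr1 and Reln. Sample 7 held Tacr1, Trhr and Reln. Sample 8 held Tacr1, Sstr2 and Reln. Sample 6 held Hcrtr1 and Reln, sample 5 Reln alone and sample 2 Nmbr alone. Samples 3, 4 and 10 held no member. Of these, sample 10 held 16.7% of all listed genes and had 442 FPKM of Snap25, sample 3 held 9.13% of all genes, and sample 4 is the one with few neuronal transcripts.

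Most receptors were found in the neurons that held Reln. Of the 13 receptor combinations, 12 lay in those 6 neurons, or 92.3%, the exception being Nmbr in sample 2. The same 6 neurons hold 64.1% of all combinations of a gene and a neuron at 1 FPKM or more. Without sample 9 the count was 7 of 8, for which the share over all genes was not computed. Without samples 1 to 4 it was 10 of 10, in 5 of 6 neurons that hold 82.2% of all combinations at 1 FPKM or more. The 4 neurons without Reln include samples 3, 4 and 2, which had the highest sums of the astrocyte markers (6392, 5120 and 3504 FPKM, against at most 2180 in the other 7 neurons). That order depends on the measure. By the mean of log2(FPKM + 1) samples 3, 8, 2 and 4 came first, at 5.69, 5.02, 4.62 and 3.17, and sample 8 held Reln. Samples 2, 3 and 4 are also among the libraries in which few genes were held, as are samples 1 and 9, which held Reln. The part of either in this count was not tested.

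The neurons with a receptor did not share a transmitter. Slc17a6, the vesicular glutamate transporter gene, was at 101, 158, 156 and 230 FPKM in samples 5, 6, 7 and 8, so Tacr1 in samples 7 and 8, Hcrtr1 in sample 6, Trhr in sample 7 and Sstr2 in sample 8 were found beside it. Sample 8 also had 8.28 FPKM of Gad1, for GABA synthesis, and sample 7 had 5.14 of Gad2, which has the same role. Sample 1, which held Tacr3 and Hcrtr1, had 146 FPKM of the glycine transporter gene Slc6a5, 71.8 of Gad1, 43.5 of Gad2 and 0.26 of Slc17a6, but 0.0167 of Slc32a1, the vesicular transporter gene for GABA and glycine. Sample 2, which held Nmbr, had 5.95 FPKM of Slc32a1, 1.85 of Slc17a6 and 0.0144 of Gad1. Sample 9 had little of either, with Slc17a6 at 0.495 and Gad1 at 0.0356 FPKM. Samples 3 and 10, with Gad1 at 37.2 and 92.0 FPKM, held no member. Of the 9 genes listed as markers of preBötC neurons, 6 were held by sample 8, 5 each by samples 6 and 7, 4 by sample 5, 3 each by samples 1, 2 and 9, 1 by sample 3 and none by samples 4 and 10. That list shares Tacr1, Reln, Sstr2, Nmbr and Grpr with the members. Of its other genes, Sst was held by samples 1, 2, 3, 5, 6 and 8. Slc17a6 was held by samples 2, 5, 6, 7 and 8, and Cdh9 by samples 1, 5, 6, 7 and 8. Oprm1 was held by samples 6 and 7.

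The peptides that act on these receptors were set beside them in the same neurons. Tac1, the precursor of substance P, was held by samples 1, 6 and 7 at 28.6, 30.1 and 9.39 FPKM. Only sample 7 held both Tac1 and Tacr1, and sample 1 held Tac1 with Tacr3. Tac2, the neurokinin B precursor, was held by sample 7 alone at 5.96 FPKM, where Tacr3 was at 0.0311 FPKM. Tac4 had no fragment in any neuron.

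Sst, the somatostatin precursor, was the most widely held ligand, at 375, 25.9, 28.0, 10.8, 41.8 and 22.8 FPKM in samples 1, 2, 3, 5, 6 and 8. Sample 8 was the 1 neuron with Sst and a somatostatin receptor gene, Sstr2. In sample 9, which held Sstr1, Sst had no fragment. Cort, for the related peptide cortistatin, was at most 0.484 FPKM. Trh was held by sample 9 alone, at 251 FPKM from 7663 fragments, and neither Trhr (1 fragment) nor Trhr2 (1 fragment) was held there. Grp was held by sample 6 alone, at 8.49 FPKM, and Nmb had no fragment in any neuron, so no neuron held a bombesin-like peptide and a receptor for it. Hcrt, made by neurons of the hypothalamus, was at most 0.254 FPKM, from 6 fragments.

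**Figure D4:**
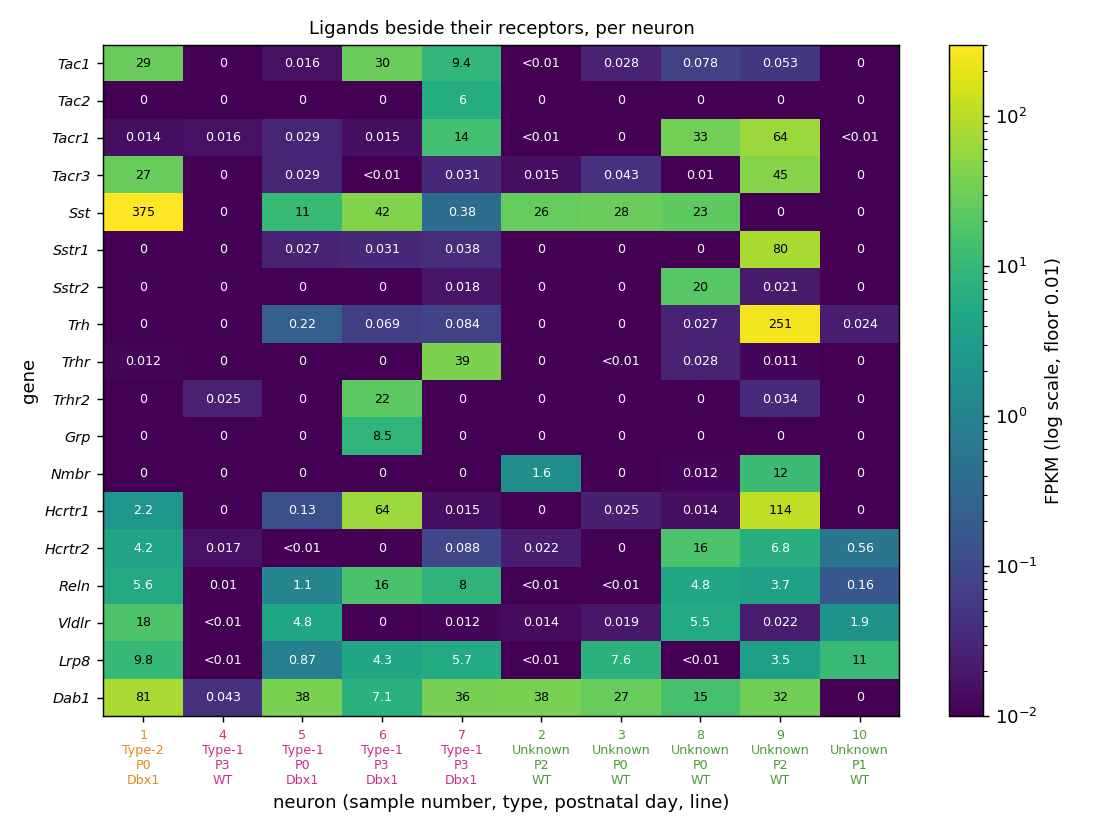
FPKM of ligand genes above the genes of their receptors (rows) in the 10 neurons (columns, as in the plot of members), on a log colour scale with the value in each cell. Trh is at 251 FPKM in sample 9 and Trhr at 39 FPKM in sample 7, and Sst and Sstr2 are found together in sample 8 alone.

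Of 9 genes for G proteins and effectors through which such receptors signal, all 9 were held by at least 1 neuron and 7 by at least 3, and the median gene was held by 8 neurons. Gna11, of the class that couples neurokinin, bombesin, TRH and orexin receptors to phospholipase C, was held by 9 neurons at between 9.49 and 81.3 FPKM and was at 0.0663 FPKM in sample 4. Gnaq, of the same class, was held by 6 neurons. Plcb4, for a phospholipase C, was held by 9 neurons, Plcb1 by 2 and Plcb3 by 2. Gnao1, Gnai1, Gnai2 and Gnai3, of the inhibitory class used by somatostatin receptors, were held by 9, 8, 9 and 5 neurons.

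A further 47 peptide receptor genes were listed for comparison. Of these 21 were held by at least 1 neuron, 10 by exactly 1, and 21 had no fragment in any neuron. In all, 44 of 470 combinations were held, or 9.36%, beside 13 of 90, or 14.4%, for the 9 receptors among the members. Over all listed genes the share was between 9.13% and 16.8% in single neurons. Without sample 9 these were 40 of 423, or 9.46%, and 8 of 81, or 9.88%. The neurons with Reln held 32 of the 44, or 72.7%. The most widely held were the nociceptin receptor gene Oprl1 in 6 neurons, at between 8.77 and 45.2 FPKM in samples 5 to 10, the PACAP receptor gene Adcyap1r1 in 5 and Pth1r in 4. Ednrb, Kiss1r and Pth2r were each held by 3. Sample 10, which held no member, held 6 of these genes, and sample 9 held 4. The opioid receptor gene Oprm1 was at 6.19 FPKM in sample 6 and 2.36 FPKM in sample 7, both with Reln.

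Low counts of the members were set against the counts that libraries share. Over 184 genes nearly private to 1 library, the median share of a gene's count found in another library was at most 0.133% in any of 90 ordered pairs of libraries. For the 29 combinations with 1 to 20 fragments, 85 fragments were counted in all and 78.0 were expected at these rates. Sstr1 and Trhr are themselves among the 184 genes, and 79.5 were expected with the members left out of them. The held combinations had at least 124 fragments each and 70386 in all, against 60.4 expected. The smallest held count, Hcrtr1 in sample 1, was 124 fragments against 0 expected. Reln in sample 10 was below 1 FPKM but had 119 fragments against 0.685 expected, or 1.37 with the members left out. Hcrtr1 in sample 5, with 12 fragments, had 10.9 expected.

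**Figure D5:**
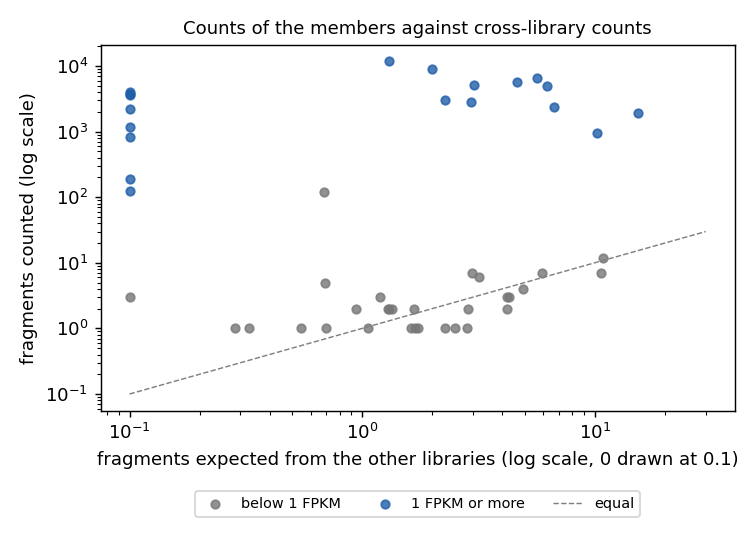
Fragments counted against fragments expected from the other libraries (log axes, 0 drawn at 0.1) for the 49 combinations of a member and a neuron with a fragment. Of the 30 points below 1 FPKM, 29 have at most 12 fragments and lie on both sides of the dashed line of equality and the other is Reln in sample 10 at 119, while the 19 held ones have 124 fragments or more.

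The genes whose pattern was most like that of a member were found by the Pearson correlation of log2(FPKM + 1) over the 10 neurons, among 10420 genes held by at least 3 neurons. It was applied to the 3 members held that widely and is given without a p. The neurons are few and differ in how many genes were detected, which all genes share. Closest to Reln were Lrrc7 (r = 0.960), Zfp329 (0.940) and Dgkb (0.929), each held by samples 1, 6, 7, 8 and 9. Closest to Tacr1 were Fgfbp3 (0.988), Tmem267 (0.983) and Coch (0.974), each held by samples 7, 8 and 9. Closest to Hcrtr1 were Rab26 (0.951), Tent5a (0.948) and Gm35021 (0.943), none of which was held in sample 1. With the Spearman correlation none of these 9 genes was among the closest 3.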

How the data were processed

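RNA of 10 single neurons was measured, 1 library each, with SMART-Seq v4 and Nextera. The authors trimmed reads with bbduk, aligned them with STAR 2.7.7a to GRCm38 and counted fragments per gene with featureCounts, and the labels name FastQC 0.11.8. The deposited counts are raw and the deposited FPKM are these counts per kilobase and per 1000000 counted fragments, matched on recomputation with a largest difference of 5.09e-11. Gene lengths were deposited as well. How fragments on overlapping genes or at several places were treated is not given in the sources used here.

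The members and gene lists were chosen with earlier results of these data known. Named were the 10 members, family, ligand and pathway genes, and the 3 genes most like each member held by 3 neurons. No test between types, lines or ages was made, because no animal is named. Poisson intervals and the limit of 3 counts cover counting error only, since reads carry no molecular identifiers. A gene was taken as private where 1 library had 3000 counts or more and no other exceeded 1% of its count, a value used in place of 10000, at which 5 libraries had such genes. Marker lists covered preBötC neurons, all neurons, glia and endothelium. The cross-library shares, the search for like genes and the Poisson intervals were tried on simulated data. For the shares only planted genes with a uniform share were used, at the cut of 10000 counts, so the cut of 3000 was not tried. The flagging of extreme neurons was not simulated. Positions are from GENCODE M21, whose exon lengths equal the deposited lengths of the 10 members, and promoters from RefSeq. Values were computed with pandas 2.3.3, SciPy 1.17.1 and NumPy 2.4.6 in Python 3.11.15, drawn with Matplotlib 3.10.9, and TMM factors came from edgeR 4.0.16 in R 4.3.3.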

Additional observations from a re-analysis of the deposited data

Results flagged for a closer look

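Within the 4 Type-1 and the 5 Unknown neurons, the gap between the most extreme neuron and its nearest neighbour passed the 95% limit of Dixon's test in 8 of 11 groups of member levels that reach 1 FPKM. Chance gives about 1 in 20 for normally distributed values, which these are not, and by the same limit 39.5% of 27288 such groups over all listed genes passed. The neurons are not known to be independent, so this describes single values and tests no type. In each of the 8 the extreme neuron was the highest. Among Type-1 neurons these were Tacr1 at 14.0 FPKM and Trhr at 39.4 FPKM in sample 7, and Hcrtr1 at 63.6 FPKM in sample 6. Among Unknown neurons these were Sstr2 at 20.4 FPKM in sample 8, and Tacr3 at 45.4 FPKM, Sstr1 at 80.1 FPKM, Nmbr at 11.8 FPKM and Hcrtr1 at 114 FPKM in sample 9.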

How the results depend on the processing

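The counts of held members by type and line stayed within 1.5 times their value in all 34 comparisons with another threshold (0.1 or 5 FPKM), TPM, thinned counts, counts under 0.2% of the highest library set to 0, TMM scaling or samples 1 to 4 left out. With TMM scaling Reln in sample 5 fell below 1 FPKM and the Type-1 count was 5. Leaving out 1 neuron gave counts from 3 (without sample 7) to 6 for Type-1, from 4 (without sample 9) to 10 for Unknown, from 6 to 8 for Dbx1-derived and from 4 (without sample 9) to 10 for WT neurons. The mean levels depend on the scale and on single neurons. Averaged as log2(FPKM + 0.1), they were 1.09 FPKM for Reln, 0.506 for Tacr1, 0.502 for Hcrtr1, 0.264 for Tacr3, 0.117 for Nmbr, 0.112 for Sstr1, 0.092 for Trhr and 0.0765 for Sstr2, each below the plain mean, as an average of logs must be. In TPM, another unit, Reln was at 10.98. With 1 neuron left out the plain means ran from 2.59 to 4.35 FPKM for Reln, 5.23 to 12.3 for Tacr1, 3.06 to 8.11 for Tacr3, 0.0106 to 8.91 for Sstr1, 0.00437 to 2.27 for Sstr2, 0.181 to 1.49 for Nmbr, 0.00659 to 4.38 for Trhr and 7.34 to 19.99 for Hcrtr1. Fewer than 2 of the 3 genes most like a member were shared in 7 of 9 comparisons with another pseudocount, the Spearman correlation or no filter on low values. The highest cross-library share was 0.127% with private genes of 10000 counts and 0.133% with 3000. Leaving the members out of the private genes, and the values without sample 9 or samples 1 to 4 for receptor shares and ages, were chosen after seeing the data. No paired analysis was possible because the labels give the types no shared replicate numbers that mark an animal or a day and no test was made. Depth limits a count of 0 to at most 3 fragments per library, and what part of a neuron's RNA was drawn was not measured.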
